A study of Drosophila melanogaster with 16 samples.

Results

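Homeobox genes encode transcription factors that bind DNA through a homeodomain, and combinations of them mark the regional origin and the type of a neuron. Counts of 57 such genes were examined in P1 neurons, of 59 listed and of 17559 genes counted in all. The genes were chosen by name from a list of homeodomain genes and matched to the count tables through FlyBase identifiers. No filter on counts was set, but earlier results of these data were known when the list was made. Of the list, ap and scro, which had no row under their identifiers, were not analysed here. P1 neurons are male-specific brain interneurons in the fruitless (fru) circuit for courtship. All males carried UAS>stop>GFP/+; fruFLP/NP2631-Gal4, so that green fluorescence marked cells in which the NP2631-Gal4 driver overlapped with a recombinase expressed from fru. They were 3 to 6 days old per the series' design, and the labels' protocols give 4 to 6 days of isolation. Naive males had stayed virgin and gave 4 libraries, and mated males had been paired with a female and gave the other 4. The sources used here name a cluster of 12 cells. The number of cells and of males behind each library is not listed for single libraries. The p-values therefore measure the spread between these libraries, which may be technical.

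Homeobox genes fall into classes with different tasks. Hox genes are read along the body axis and set segment identity, mostly behind the brain, and their proteins bind DNA together with the cofactors extradenticle and homothorax. LIM, POU, sine oculis-type, CUT, zinc finger and paired-type homeobox genes act in brain and eye development and are often kept on in adult neurons, where they hold a cell's identity in place. prospero encodes a divergent homeodomain protein that is passed to the daughter cells of neural stem cells and promotes their exit from the cell cycle.

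Libraries held 6897560 to 13651313 counts, and the number of homeobox genes with at least 10 counts ran from 17 in naive library 2 to 26 in mated libraries 2 and 3. The genes fru and dsx, which define these cells, reached 10 counts in all 8 libraries, as did the neuron markers elav, nSyb, Syt1, brp and fne. Levels are given in CPM (read counts per 1e6 of the scaled library size). fru was lower after mating, at 286 ± 207 CPM against 776 ± 338 CPM in naive libraries (SD, n = 4). dsx was at 79.2 ± 32.4 CPM against 99.9 ± 56.6 CPM. Of 4 neural stem cell markers, ase was listed at 0 in every library, dpn and wor never passed 8 counts and mira reached 14 counts in mated library 4. The 7 glia markers together held 108 to 315 CPM (read counts per 1e6 of the scaled library size) where males were naive and 290 to 923 CPM where they were mated. For 6 fat body markers these ranges were 243 to 607 and 1231 to 2954 CPM, and for 6 photoreceptor markers, mostly norpA, 1058 to 1690 and 1292 to 1860 CPM. The mean of norpA was lower after mating, at 1125 against 1334 CPM. Means of the remaining photoreceptor markers were higher after mating. Arr2 was at 180 against 13.0 CPM, Arr1 at 69.1 against 3.69 CPM and ninaE at 87.2 against 15.1 CPM. ninaC was at 11.7 against 0.952 CPM and trp at 4.22 against 0.204 CPM. The 6 muscle markers stood at 14.8 to 41.1 and 31.5 to 169 CPM, and 4 hemocyte markers at 0 to 5.30 and 6.33 to 15.4 CPM. In tissue drawn by pipette, fewer cells of a type and less RNA per cell cannot be told apart.

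A core of homeobox genes was read in every library. With a minimum of 10 counts, 15 genes passed in all 8 libraries, 20 passed in 1 to 7 libraries and 22 passed in none. The core comprised pros, Lim1, hth, exd, Optix, otp, onecut, pdm3, toy, Rx, Vsx1, vvl, ct, zfh2 and zfh1. Over all genes counted, 24.4% passed in all 8 libraries, against 26.3% of the homeobox genes, so the share itself was near the background. The core was well clear of the minimum except for zfh1, whose lowest library held 15 counts, while the next lowest minimum was the 89 counts of Rx in mated library 1. Just outside it, achi passed in 6 libraries and was at 0 in naive library 2, and Dbx and ey passed in 5.

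**Figure D1:**
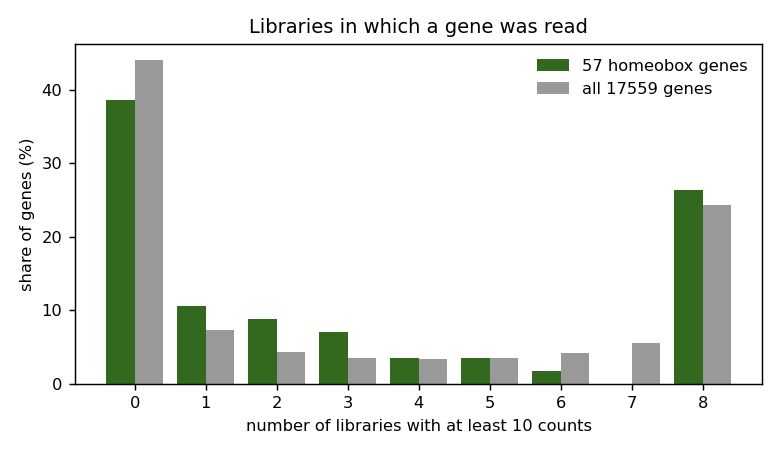
Share of genes, in percent, by the number of libraries in which a gene had at least 10 counts, for the 57 homeobox genes (green) and all 17559 genes (grey). Both sets are heaped at 0 and at 8 libraries, and no homeobox gene passed in exactly 7.

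Among the listed genes, the core divided by homeodomain class, a grouping made after the counts were seen. None of the 22 genes of the ANTP class, which holds the Hox, segmentation and NK-like genes, passed in all 8 libraries. Of the 35 genes of the other classes 15 did, where 24.4% of all genes counted passed. Outside the list the division was not complete. NK7.1, an ANTP-class gene among 42 further homeobox genes of which 4 passed, also passed in all 8. Both CUT genes, both zinc finger genes, 2 of 4 POU genes, 4 of 12 paired-type genes, 2 of 7 TALE and Iroquois genes, 1 of 4 LIM genes and 1 of 3 sine oculis-type genes were in the core. The classes were compared by counts alone, with no test.

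**Figure D2:**
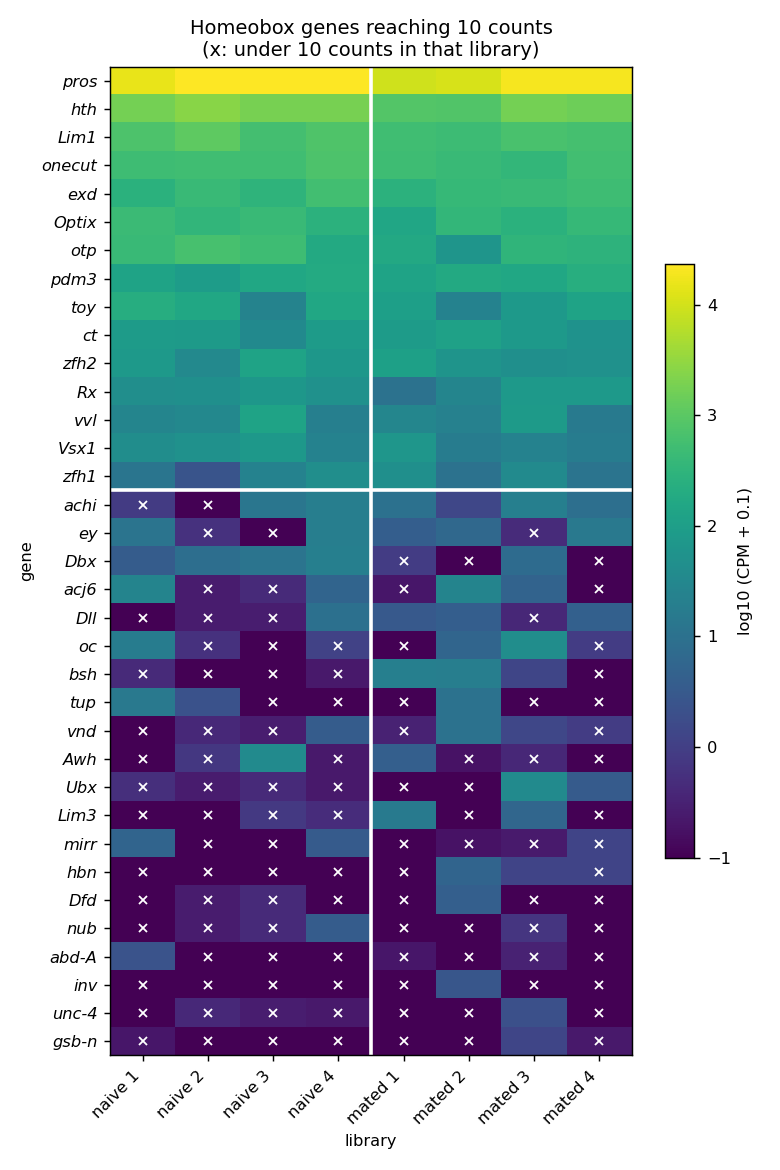
Levels of the 35 homeobox genes that reached 10 counts in at least 1 library, as log10 of CPM plus 0.1, with 1 column per library and a cross where a library held under 10 counts. The 15 genes above the horizontal line have no cross, and the 20 genes below it passed in 1 to 6 libraries (naive left and mated right of the vertical line).

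The gene pros (FBgn0004595, 3R:11328480-11407627) stood far above the rest. Its level was 15423, 22869.9, 23075 and 23038 CPM in naive libraries 1 to 4 and 9663, 11131, 19648 and 19296 CPM in mated libraries 1 to 4. Per kilobase of annotated exon, the scale used here between genes, this gave 724 ± 216 CPM per kb (SD, n = 8). On that scale 98.4% of genes at 10 counts in all libraries lay lower. It takes all annotated exons of a gene together, and how evenly the amplified cDNA covered them was not tested. Homeobox genes together took 1.39% to 2.74% of a library's counts, and without pros 0.338% to 0.550%. Coordinates are those of the BDGP6 annotation, the build that the submitters' processing notes name beside dm6.

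Both genes of the cofactor pair hth and exd were in the core. Homothorax, a Meis-type protein that carries Extradenticle into the nucleus, was encoded by hth (FBgn0001235, 3R:10507561-10639568) at 137 ± 49.3 CPM per kb. The partner exd (FBgn0000611, X:15992468-15996509), a Pbx-type cofactor of Hox proteins, stood at 120 ± 30.3 CPM per kb (SD, n = 8). The per-kb ratio of hth to exd was 1.81, 1.68, 1.64 and 0.918 in naive libraries 1 to 4 and 0.839, 0.568, 1.15 and 0.859 in mated libraries 1 to 4. The ranges overlapped, since naive library 4 fell among the mated values. The other TALE and Iroquois genes were low, with vis, ara and caup never above 5 counts and mirr at 48 counts in naive library 1 and 26 in naive library 4. achi and vis are tandem copies of similar sequence, 919 bases apart, so the split of reads between them is uncertain.

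Among LIM genes, which pair a homeodomain with LIM zinc fingers, Lim1 was the steady one. Lim1 (FBgn0026411, X:8756539-8805804) ranged from 467 to 1060.0 CPM over the 8 libraries and was second to pros per kilobase, at 170 ± 47.4 CPM per kb (SD, n = 8). Its relatives passed in 2 or 3 libraries each. Awh reached 228 counts in naive library 3 and 35 in mated library 1, with at most 4 counts elsewhere. Lim3, known from motor neurons, held 142 counts in mated library 1, 80 in mated library 3 and at most 4 elsewhere. tup, the fly Islet gene, held 136 counts in naive library 1, 120 in mated library 2 and 13 in naive library 2, and was at 0 in the other 5.

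Paired-type genes of the anterior brain gave 4 core members. otp (FBgn0015524, 2R:20883625-20903414), whose vertebrate relative orthopedia acts in hypothalamic neurons, stood at 429, 621, 502 and 184 CPM in naive libraries 1 to 4 and at 174, 62.1, 318 and 299 CPM in mated libraries 1 to 4. Rx (FBgn0020617, 2R:20916753-20937030), the fly retinal homeobox gene, ranged from 10.3 to 79.3 CPM. toy (FBgn0019650, 4:989725-1007922), a Pax6 gene, ranged from 24.1 to 220 CPM, and its relative ey passed 10 counts in 5 libraries, with 151 counts at most. Vsx1 (FBgn0263511, X:5594255-5612865), named for visual system development, ranged from 17.6 to 72.8 CPM. In every library with an ey count, toy was the higher per kilobase, by 3.60 to 26.2 times where ey passed 10 counts. The ratios of 304 in naive library 2 and 211 in mated library 3 rest on 3 and 5 counts of ey.

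Among sine oculis-type genes, Optix (FBgn0025360, 2R:8031283-8042529), a gene of the eye and anterior brain, stood at 119 ± 36.0 CPM per kb (SD, n = 8), whereas so and Six4 never passed 2 counts. Of the POU genes, pdm3 (FBgn0261588, 2R:8327490-8396280), which acts in olfactory neuron identity, was at 157 ± 42.3 CPM and vvl (FBgn0086680, 3L:6790158-6794941) at 44.7 ± 39.3 CPM (SD, n = 8). acj6, an olfactory receptor regulator, passed in 4 libraries and nub in naive library 4 alone, at 27 counts.

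The CUT genes differed in level but not in presence. onecut (FBgn0028996, 4:598555-607649) was at 513 ± 103 CPM and ct (FBgn0004198, X:7608428-7678859), which shapes dendrites of sensory neurons, at 78.4 ± 25.2 CPM (SD, n = 8). Per kilobase these were 76.1 ± 15.3 and 6.30 ± 2.03 CPM per kb. The zinc finger homeobox genes closed the core, with zfh2 (FBgn0004607, 4:501810-540874) at 5.77 ± 2.62 and zfh1 (FBgn0004606, 3R:30765926-30789202) at 3.37 ± 2.46 CPM per kb. Of the annotated exon bases of zfh2, 18.7% lie over Tdg on the other strand, and 9.53% of those of otp and 4.56% of those of zfh1 over antisense RNAs. The use of strand in counting is not given in the sources used here, so part of these counts could belong to the partners.

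The order of these levels was repeated across libraries in places. pros was above Lim1 in 8 of 8 libraries, Lim1 above hth in 7, Optix above otp in 7 and onecut above pdm3 in 8, all per kilobase. Neighbours in the middle of the order did not separate, as hth was above exd in 4 of 8 libraries, exd above Optix in 5, otp above onecut in 5, pdm3 above toy in 4 and toy above Rx in 5. vvl had the higher mean but was above ct in 2 libraries, because naive library 3 (127 CPM) and mated library 3 (83.4 CPM) carried its mean.

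**Figure D3:**
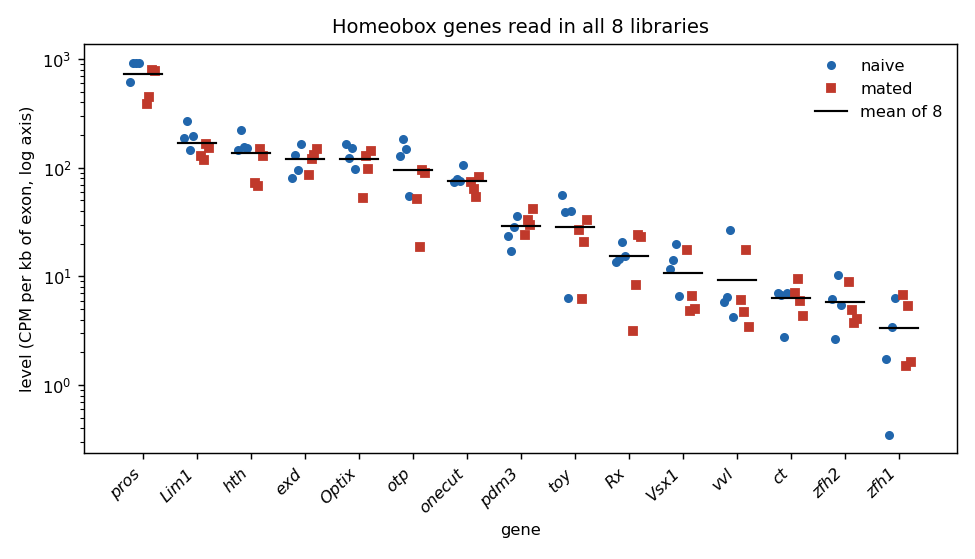
Level of each of the 15 core genes in every library, in CPM per kilobase of exon on a log axis, with naive libraries as circles, mated libraries as squares and the mean of the 8 libraries as a line. pros lies above all others at a mean of 724 CPM per kb, and the points of the 2 groups overlap in every gene.

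Core genes varied between libraries about as other steadily read genes did. The median SD of log2 CPM over the 8 libraries was 0.58 for the 15 core genes and 0.70 for all 4276 genes at 10 counts in every library, and the core genes had the higher median level (log2 CPM of 7.25 against 5.97). onecut was the steadiest, with a highest library 1.98 times the lowest, followed by exd at 2.05 and Lim1 at 2.27 times. Against genes within 0.5 log2 units of their own level, 13.6% had a smaller SD than onecut, 30.9% than exd and 38.2% than Lim1. At the other end stood zfh1 at 19.1, otp at 9.99 and toy at 9.13 times. Among 476 genes of like level, otp had a larger SD than 98.3%, and among 804 such genes toy had a larger SD than 94.9%. toy was lowest in mated library 2 (24.1 CPM) and naive library 3 (24.6 CPM), and otp was lowest in mated library 2, so low values occurred in both groups for toy.

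**Figure D4:**
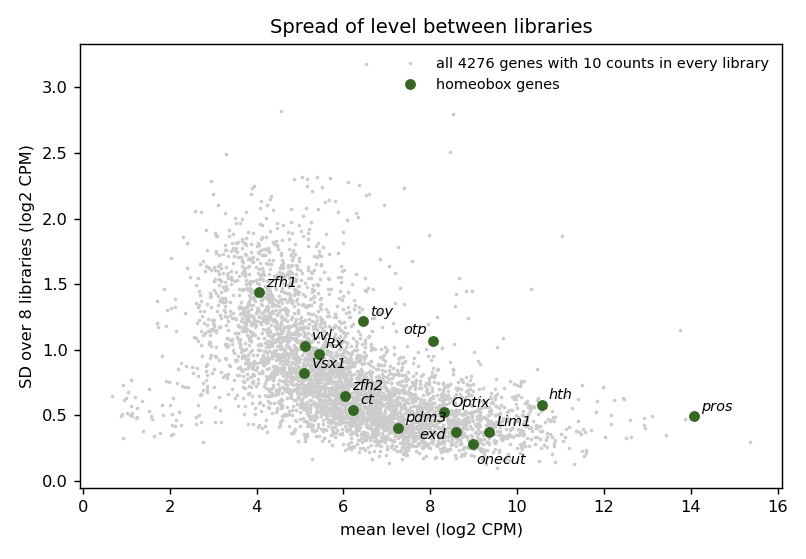
Standard deviation of log2 CPM over the 8 libraries against mean log2 CPM, for all 4276 genes with 10 counts in every library (grey) and the 15 core homeobox genes (green). otp and toy lie above most genes of their level, and onecut has the smallest SD of the 15.

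Hox genes, which pattern segments behind the anterior brain, were at or near 0 in most libraries. Of the 8, Scr was listed at 0 in all libraries, and lab, Abd-B, Antp and pb never passed 1, 2, 3 and 6 counts. A count of 0 allows up to 3 counts, or 0.220 to 0.435 CPM of the unscaled total depending on the library, and covers counting error only. The other 3 appeared in separate libraries. Dfd, a head-segment gene, had 47 counts in mated library 2 and at most 2 elsewhere. abd-A, an abdominal gene, had 21 counts in naive library 1 and at most 3 elsewhere. Ubx, which sets the identity of the posterior thorax, had 497 counts in mated library 3 (36.2 CPM), 25 in mated library 4 and at most 4 in the other 6. Of the annotated exon bases of Antp, 50.1% are shared with CG46458 on the same strand, so its low counts carry an added uncertainty.

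Several other patterning genes were at or near 0 as well. The genes listed at 0 in every library were Scr, en, gsb, PHDP, ind and exex, and a further 16 genes had counts but never more than 6, among them eve, ftz, ems, unpg, slou, OdsH and B-H1. en, which marks posterior compartments, was at 0 while its neighbour and paralogue inv had 30 counts in mated library 2 and 0 in the other 7. 44.1% of all genes counted stayed under 10 counts in every library, against 22 of the 57 homeobox genes.

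The number of the 20 partly read genes in a library was lowest where fewest genes of any kind were read. Naive libraries 1 to 4 held 7, 2, 3 and 8 of them at 10 counts, and mated libraries 1 to 4 held 6, 11, 11 and 4. Naive libraries 2 and 3 and mated library 4, with 2, 3 and 4, also had the fewest genes at 10 counts over all genes, 6179, 6220.0 and 6643, against 7188 to 7345 in the other 5. Over all genes counted, 31.6% passed in 1 to 7 libraries. Mated libraries alone held 10 counts for 8 of the 20 genes (Dfd, Ubx, inv, Lim3, bsh, hbn, gsb-n and unc-4), naive libraries alone for 3 (abd-A, mirr and nub), and both groups for 9. Of the 5548 genes that passed in 1 to 7 libraries, 19.2% did so in mated libraries only and 14.3% in naive libraries only, against 40% and 15% of the 20, and this difference was not tested. Each of the 8 genes passed in mated library 2 or 3, the deepest libraries, at 10268232 and 13651313 counts in total. Their highest levels ran from 1.24 CPM (gsb-n) to 36.2 CPM (Ubx). With counts scaled to the shallowest library, 15 homeobox genes still passed in all 8 libraries and 6 in exactly 1. The part of depth in the mated-only genes was not tested. The 20 partly read genes took 0.00122% to 0.0128% of a library's counts.

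Exactly 1 library held 10 counts for 6 genes, or 10.5% of the 57, where 7.31% of all genes counted passed in exactly 1. They were abd-A in naive library 1, nub in naive library 4, Dfd and inv in mated library 2, and gsb-n (17 counts) and unc-4 (27 counts) in mated library 3. Both sequencing runs of the library held the reads, as with 24 and 23 counts for Dfd, 12 and 18 for inv and 12 and 15 for unc-4. The runs share 1 amplified cDNA, so they show that the transcript was in that library and say nothing of a second sample.

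Other intermittent genes were high where present. oc, the orthodenticle gene of the anterior head, had 159 counts in naive library 1, 65 in mated library 2 and 582 in mated library 3 (42.4 CPM), and at most 8 in the other 5. acj6 had 236 counts in naive library 1, 298 in mated library 2, 70 in mated library 3 and 41 in naive library 4, and at most 2 elsewhere. bsh, which specifies lamina and medulla neurons of the optic lobe, had 175, 221, 17 and 0 counts in mated libraries 1 to 4 and 3, 0, 0 and 1 in naive libraries 1 to 4. hbn had 59, 16 and 9 counts in mated libraries 2 to 4 and 0 in the other 5. vnd, which marks the ventral column of the embryonic nerve cord, had 119 counts in mated library 2, 27 in naive library 4 and 18 in mated library 3. Dll, the limb gene, passed in naive library 4 (74 counts) and in mated libraries 1, 2 and 4 (26, 45 and 32 counts). Mated library 2 thus held the highest level of Dfd, inv, vnd and hbn, in counts and in CPM. bsh was at 20.2 CPM in mated library 1 and 19.2 CPM in mated library 2, and acj6 at 25.7 CPM in naive library 1 and 25.9 CPM in mated library 2. In the same library 3 of the 4 hemocyte markers, Hml, NimC1 and He, also had their highest counts, of 94, 66 and 17. The fourth, srp, was at 0 there and at 51, 87 and 97 counts in mated libraries 1, 3 and 4. fru had its lowest count, of 588, in mated library 2. dsx had 786 counts there and its lowest count, of 265, in naive library 4. The part of other cells in these values was not tested.

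Neighbouring homeobox genes on the chromosome did not all share a pattern. otp and Rx, 13.3 kb apart on 2R, were both in the core, while hbn, 17.6 kb beyond Rx, had 84 counts in total against 3561 for Rx and 21099 for otp. onecut and zfh2 lie 57.7 kb apart on chromosome 4 and were both in the core. By arm, 3 of 4 homeobox genes on chromosome 4 were in the core, where 65.5% of all 110 genes on that chromosome passed in all 8 libraries. None of the 4 on 2L were, against 21.3% of all genes there.

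Mated and naive libraries were compared over all genes. edgeR's quasi-likelihood test called 27 of 7090 tested genes (0.381%) at an adjusted p under 0.05, and 0 of the 20 homeobox genes that passed the filter on low counts were among them. DESeq2 called 1 of the 26 to which it gave an adjusted p, bsh, and 5.3% of all genes with one. Without adjustment, 2 homeobox genes, hth and otp, had p under 0.05 in edgeR, both lower in mated libraries, where 10.6% of tested genes had such a p, 5.02% lower and 5.54% higher. In no homeobox gene were the 2 groups without overlap, where 7.66% of tested genes had that property, 3.4% lower and 4.26% higher in mated libraries. Of the 20, 14 had a log2 fold change below 0 and 6 above, with a median of -0.31 against -0.01 over all tested genes, of which 50.5% were below 0.

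The lowest p-values were those of hth and otp. hth was at 1735, 2617.5, 1849 and 1802 CPM in naive libraries 1 to 4 and at 851, 806, 1769 and 1504 CPM in mated libraries 1 to 4. Mated libraries 1 and 2 were low and mated library 3 overlapped the lowest naive one. Its log2 fold change was -0.70 ± 0.28 (SE; edgeR, unadjusted p = 0.0244, adjusted p = 0.365). otp, whose values stand above, had a log2 fold change of -1.03 ± 0.45 (SE; edgeR, unadjusted p = 0.0400, adjusted p = 0.439), and naive library 4 lay within the mated range. pros gave -0.50 ± 0.26 and Lim1 -0.50 ± 0.24 (edgeR, adjusted p = 0.530 and 0.496).

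Values in the other core genes were smaller or less certain. toy gave a log2 fold change of -0.71 ± 0.58, Vsx1 -0.62 ± 0.63, vvl -0.44 ± 0.71, Optix -0.35 ± 0.31 and onecut -0.29 ± 0.23 (SE, edgeR). The mean level of exd was 391 ± 126 CPM over naive libraries and 399 ± 86.4 CPM over mated ones (SD, n = 4), a log2 fold change of 0.03 ± 0.28. pdm3 gave 0.29 ± 0.32, ct 0.18 ± 0.42, zfh1 0.35 ± 0.95, zfh2 -0.20 ± 0.48 and Rx -0.13 ± 0.60. The lowest adjusted p among these genes was 0.753, in onecut (edgeR), and in Vsx1, vvl, exd, pdm3, ct, zfh1, zfh2 and Rx the standard error was larger than the fold change. With libraries scaled by size alone, which moves the median of all genes to 0.17, zfh2 and Rx turned to 0.0026 and 0.02.

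**Figure D5:**
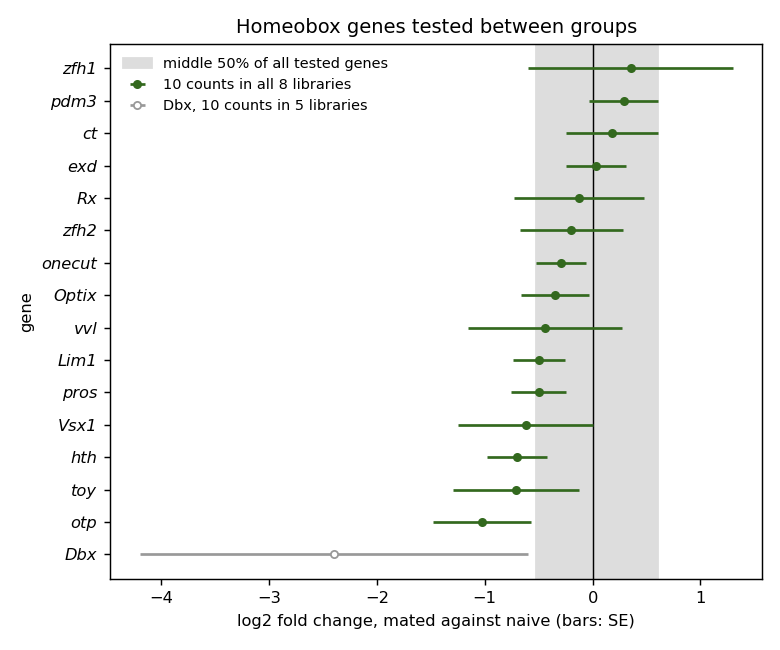
Log2 fold change of mated against naive libraries with its standard error, for the 15 core genes (filled) and Dbx (open, added after its values were seen), with the middle 50% of all 7090 tested genes shaded from -0.53 to 0.61. Points left of 0 are lower in mated libraries, and none passed the adjusted threshold.

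Levels of neuron markers were lower in mated libraries as well, though none passed the adjusted threshold (edgeR, unadjusted p under 0.05 in 3 of 5). The summed level of elav, nSyb, Syt1, brp and fne was 12222 to 15805 CPM in naive and 7696 to 12632 CPM in mated libraries, and it was lowest in mated libraries 1 and 2, as were pros and hth. With libraries scaled to these 5 markers, the log2 fold change of pros was -0.06 ± 0.13, of Lim1 -0.02 ± 0.22, of hth -0.28 ± 0.18 and of otp -0.64 ± 0.39 (SE). On that scale the median of all tested genes moved to 0.49, 13 of the 20 homeobox genes were above 0 and 7 below, and 0 had an unadjusted p under 0.05 (edgeR). The ratio of pros to hth per kilobase stayed between 4.16 and 6.57 in all 8 libraries.

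The number in the sample titles, whose meaning the labels do not give, was shared by both groups in 1 case. Among the libraries numbered 1119, hth was at 1849 CPM in naive library 3 and at 851 and 1769 CPM in mated libraries 1 and 3, and otp was at 502 CPM against 174 and 318 CPM. pros was at 23075 CPM against 9663 and 19648 CPM. These differences kept their direction in each mated library. Lim1 showed a log2 ratio of 0.01 there and toy one of 1.93, opposite to its value over all libraries. Elsewhere the number and the group cannot be told apart.

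Genes of low count were too variable to compare. Dbx, a gene of interneuron types, had 33, 52, 71 and 162 counts in naive libraries 1 to 4 and 7, 0, 104 and 0 in mated libraries 1 to 4. It passed 10 counts in 4 of 4 naive and 1 of 4 mated libraries, and its log2 fold change was -2.40 ± 1.80 (SE; edgeR, adjusted p = 0.726). The 5 tested genes outside the core had standard errors of 1.57 to 1.89 log2 units, against 0.23 to 0.95 in the core. bsh did not pass edgeR's filter on low counts. DESeq2, run on all genes with its default filtering, gave it an adjusted p of 0.0211, and edgeR without the filter an adjusted p of 0.313. Mated library 4 had 0 counts of bsh, so the 2 groups overlapped.

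Other homeobox genes and other transcription factors gave a frame for these results. Of 42 further homeobox genes, 4 passed in all 8 libraries (among them NK7.1, CG32532 and schlank, the last a ceramide synthase with a homeodomain), 10 in some and 28 in none, with 16 at 0 throughout. NK7.1, of the ANTP class, was thus steady at 225 to 1041 counts, unlike the ANTP-class genes listed above. repo, the glial homeobox gene, had 53, 4, 0 and 78 counts in naive libraries 1 to 4 and 40, 0, 71 and 75 in mated libraries 1 to 4. Of 38 transcription factors without a homeodomain, 19 passed in all 8 libraries, among them jim at 6446 ± 1896 CPM and chinmo, mamo and scrt at means of 1490.3, 1432 and 1072 CPM (SD, n = 8). In the mating comparison 0 of 6 tested further homeobox genes and 0 of 26 tested factors had an adjusted p under 0.05 (edgeR), with 0 and 4 at an unadjusted p under 0.05. The medians of their log2 fold changes were -0.18 and -0.06. fru was 1 of the 4, all lower in mated libraries. Its log2 fold change was -1.44 ± 0.54 (SE; edgeR, unadjusted p = 0.0188, adjusted p = 0.325).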

How the data were processed

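RNA of P1 neurons, drawn with a patch pipette and amplified as polyA cDNA, was sequenced in 2 runs of each of 8 libraries. The deposited values are raw read counts per gene; the submitters' processing notes name cutadapt, HISAT2 2.2.1, featureCounts 1.6.2 and the builds dm6 and BDGP6. Strand, annotation release and treatment of shared reads are not given in the sources used here. The deposited sums equalled run A plus run B for every gene and were used as 1 replicate per library. Of 17559 rows, 17253 had a gene name and exon length in the Ensembl BDGP6 annotation.

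Mated and naive libraries were compared over 7090 genes that passed filterByExpr, with TMM scaling and edgeR 4.0.16's robust quasi-likelihood test in R 4.3.3 (limma 3.58.1), adjusted by Benjamini-Hochberg at 0.05. CPM used the TMM-scaled library size. DESeq2 1.42.0, other scalings and filters, single runs, a term for the number in the sample titles and leaving out each library were alternatives. The edgeR fit was also run on simulated data with 200 changed genes. It called 51 of them (25.5%) at a log2 change of 2 and 96 (48%) at a log2 change of 4. A gene that was not called may therefore still differ. The biological coefficient of variation was 0.9357. Intervals and floors for a count of 0 (3 counts) cover counting error only.

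The members and lists were chosen with earlier results of these data known. The rule for named genes took those with 10 counts in all 8 libraries or in exactly 1, the Hox genes, those with an unadjusted p under 0.05 and those next to the minimum. Other genes named were chosen after their values were seen. ap, scro, lola, br and hr3 were not analysed here.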

Additional observations from a re-analysis of the deposited data

Results flagged for a closer look

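In 23 of the 59 groups of 4 libraries examined, 1 library stood apart from the other 3 by Dixon's criterion. Its chance rate of about 1 in 20 assumes normally distributed values. Genes that were hardly read in most libraries do not meet this, so the 23 cannot be compared with that rate. The 23 came from 19 genes, and every library except mated library 4 was among them. Core genes gave 6. In naive libraries, pros was low in library 1 at 15400 CPM (next 22900), hth was high in library 2 at 2620 CPM (next 1850), and onecut was high in library 4 at 720 CPM (next 533). ct was low in naive library 3 at 34.8 CPM (next 84.6), and vvl was high in the same library at 127 CPM (next 31.1). Vsx1 was high in mated library 1 at 64.2 CPM (next 24.2).

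The other 17 were genes of low count that were high in 1 library. For Dfd, abd-A, inv, unc-4 and, in mated library 2, tup, the rest of the group was at 0 CPM. Such a flag only restates that the gene was read in 1 library of its group. Naive library 1 held tup at 14.8, oc at 17.3 and abd-A at 2.29 CPM. Naive library 3 held Awh at 37.6 CPM, and naive library 4 held Dll at 9.57, vnd at 3.49 and nub at 3.49 CPM. Mated library 1 held Awh at 4.05 CPM. Mated library 2 held tup at 10.4, vnd at 10.3, Dfd at 4.09 and inv at 2.61 CPM. Mated library 3 held oc at 42.4, Ubx at 36.2, Dbx at 7.57, unc-4 at 1.96 and gsb-n at 1.24 CPM.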

How the results depend on the processing

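No paired analysis was possible because the labels do not say which naive and mated libraries form a pair. The number of genes called over all genes (27) moved to 46 with library size alone, 56 with no filter, 64 with 10 counts in every library and 47 in run B alone. It moved to 48 with scaling to neuron markers (chosen after seeing the data) and 426 in DESeq2. Leaving out 1 library gave 6 (without mated library 1) to 53 (without mated library 3). The count of homeobox genes called (0) became 1 in DESeq2 and was 0 in every other setting run. The core of 15 genes became 14, without zfh1, at a minimum of 20 counts or in 1 run alone. The 6 genes of exactly 1 library became 10 at a minimum of 1 count. Of 319 alternative fold changes of the 15 core genes and Dbx, 22 turned direction and 0 passed the threshold. bsh was not among the genes compared in this way. Log2 fold changes turned to 0.020 (Rx) and 0.0026 (zfh2) with library size alone, and to 0.20 (Rx), 0.13 (Optix), 0.21 (onecut), 0.040 (vvl) and 0.39 (zfh2) with scaling to neuron markers. With the title number as a factor they turned to 1.93 (toy), 0.013 (Lim1) and -0.094 (pdm3). That setting compared the groups within number 1119 alone, in naive library 3 and mated libraries 1 and 3. Leaving out 1 library gave -0.47 to 0.21 for Rx, -0.12 to 0.23 for exd, -0.061 to 0.33 for ct, -1.15 to 0.52 for vvl, -0.071 to 1.04 for zfh1 and -0.55 to 0.16 for zfh2. Apart from the fewer libraries or genes in some settings, the cause was not tested. Counts of 10 to 30 in 1 library limit what can be said of the genes read there.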
